A study of Sus scrofa with 14 samples.

Results

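Proteoglycans are proteins that carry long sulfated sugar chains, and together with collagen they make up much of the matrix between the cells of the mammary gland. Small leucine-rich proteoglycans bind collagen fibrils and set how thick and how evenly spaced they are, versican builds a loose, hydrated matrix with hyaluronan, and perlecan is the heparan sulfate proteoglycan of basement membranes. In the mammary gland this matrix surrounds ducts, alveoli and vessels, and it is remodelled when alveoli expand before lactation and collapse after weaning.

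The 8 genes described were the small leucine-rich proteoglycans decorin (DCN), lumican (LUM), biglycan (BGN), fibromodulin (FMOD) and osteoglycin (OGN), the chondroitin sulfate proteoglycan versican (VCAN), perlecan (HSPG2) and exostosin glycosyltransferase 1 (EXT1), part of the enzyme complex that elongates heparan sulfate chains. They are listed by symbol, with no threshold on a measured value, but were picked with earlier results of these data known. All 8 were found among the 30042 gene identifiers of all 12 count matrices. Single-nucleus libraries came from frozen mammary glands of 10 multiparous sows (Sus scrofa) in the second breeding cycle, 2 sows at each of 5 stages, namely day 90 of gestation (G90), day 0 of lactation (L0), day 20 of lactation (L20), and 2 days (PI2) and 7 days (PI7) into natural involution. All sows received standard diets, none was treated, and each gland was sampled in the third region of the right side. Spatial transcriptomics covered 1 frozen section at G90 and 1 at PI2. With 2 sows per stage, the p-values of stage tests rest on the spread between these few animals. Those of class comparisons rest on the spread of the difference within glands.

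Gland libraries held 18962138 to 53165191 unique molecular identifiers (UMIs, each standing for 1 captured RNA molecule). Of 128233 barcodes, 126833 nuclei were kept, with a minimum of 300 genes and no more than 25% of UMIs from mitochondrial genes, and 3994 barcode sequences occurred in 2 or more libraries. A nucleus was gated to a cell class where at least 2 of 10 markers of the class had a UMI and their number was at least 2 times that of any other class. Levels of a class were compared only in glands with at least 20 nuclei of it. The gate placed 90663 nuclei (71.5%), none of the 8 genes served as a marker, and 8 to 10 markers of each list were highest in their own class. The fibroblast gate held 10776 nuclei, from 52 in L0 replicate 2 to 4401 in L20 replicate 2, which is 0.554% to 29.1% of the nuclei of a gland. Markers of the other 9 classes summed to 112 to 341 counts per 1000000 UMIs (CPM) per list in fibroblast-gated nuclei, where the fibroblast list summed to 14357 CPM. The gate used these same markers. Both these sums and the markers highest in their own class largely follow from it and are no check of the classes. L20 replicate 2 stood apart from the other glands in its many fibroblast nuclei. It also had the lowest share of luminal nuclei (7.42%) and the highest share of macrophages (13.5%). Several values that rest on it, but not all, are also given without it.

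On the pig genome (Sscrofa11.1, RefSeq annotation) the genes lie on 7 chromosomes, and DCN and LUM are neighbours. DCN spans chr5:91678601-91713925 and LUM chr5:91748871-91756381 on the plus strand, followed on that strand by the related genes KERA and EPYC. OGN (chr3:42116521-42135940, minus strand) lies beside OMD, ASPN and ECM2 on the same strand, and FMOD (chr9:64062995-64073853, minus strand) lies near PRELP and OPTC. BGN spans chrX:124282048-124295450 and VCAN chr2:91682177-91811674 on the plus strand, and HSPG2 spans chr6:79849691-79958283 on the minus strand. EXT1, at chr4:20645002-20935769 on the plus strand, was the longest gene with 290768 bases, against 7511 bases for LUM, the shortest.

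The 250 bases upstream of the annotated starts of 7 of these genes differed in the number of CG dinucleotides, which mark the promoters of many broadly expressed genes. Whether this number goes with the cell classes in which a gene was seen was not tested. The sequences of LUM and of HSPG2 are printed as examples that differ in it. They come from the RefSeq assembly Sscrofa11.1 and read 5′ to 3′ on the strand of the gene, with CG in capitals.
LUM, chr5:91748621-91748870, plus strand: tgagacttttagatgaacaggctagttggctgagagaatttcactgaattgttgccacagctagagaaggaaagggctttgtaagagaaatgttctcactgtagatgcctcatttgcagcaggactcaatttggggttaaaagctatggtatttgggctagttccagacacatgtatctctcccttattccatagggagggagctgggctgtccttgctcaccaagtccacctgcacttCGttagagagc
HSPG2, chr6:79958284-79958533, minus strand: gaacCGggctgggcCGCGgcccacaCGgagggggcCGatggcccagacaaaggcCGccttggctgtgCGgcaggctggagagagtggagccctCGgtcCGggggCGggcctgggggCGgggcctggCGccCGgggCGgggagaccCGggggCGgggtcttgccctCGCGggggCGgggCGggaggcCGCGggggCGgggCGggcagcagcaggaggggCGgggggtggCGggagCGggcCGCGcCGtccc
LUM held 1 CG, against 30 in HSPG2. The other upstream stretches held 0 CG in OGN, 2 in VCAN, 3 in FMOD, 19 in BGN and 37 in EXT1. Over 19556 upstream stretches of 250 bases in the annotation the median was 12, so LUM, OGN, VCAN and FMOD were below it and BGN, HSPG2 and EXT1 above it. The letters TATAA on either strand occurred in 17.2% of all these stretches and, among the 7 genes, in VCAN alone. These counts describe the letters and do not place a regulatory site.

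DCN and LUM marked fibroblast nuclei in each of the 10 glands. DCN, which binds collagen fibrils and holds back transforming growth factor beta, averaged 1294 ± 608 CPM (SD, n = 10 glands) in fibroblast-gated nuclei, against 16.4 ± 13.7 in luminal epithelial nuclei, 29.5 ± 21.2 in blood endothelial nuclei and 32.7 ± 27.3 in myoepithelial nuclei. In fibroblast nuclei DCN stood at 1048 and 891 CPM for G90, 1684 and 1819.9 for L0, 1040.0 and 2577 for L20, 1258 and 353 for PI2 and 1031 and 1236 for PI7. Even the lowest of these, PI2 replicate 2, was above the highest DCN level of any other class in any gland, 172 CPM in B and plasma nuclei.

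LUM, the neighbour of DCN, which also organizes collagen fibrils, averaged 551 ± 344 CPM (SD, n = 10) in fibroblast nuclei and 8.95 ± 8.36 in luminal nuclei. Its fibroblast levels were 456 and 416 CPM for G90, 701 and 447 for L0, 1406 and 765 for L20, 224 and 435 for PI2 and 389 and 267 for PI7. Both L20 glands lay above the other 8, which held for 0.651% of 15967 genes with at least 50 UMIs in these nuclei.

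**Figure D1:**
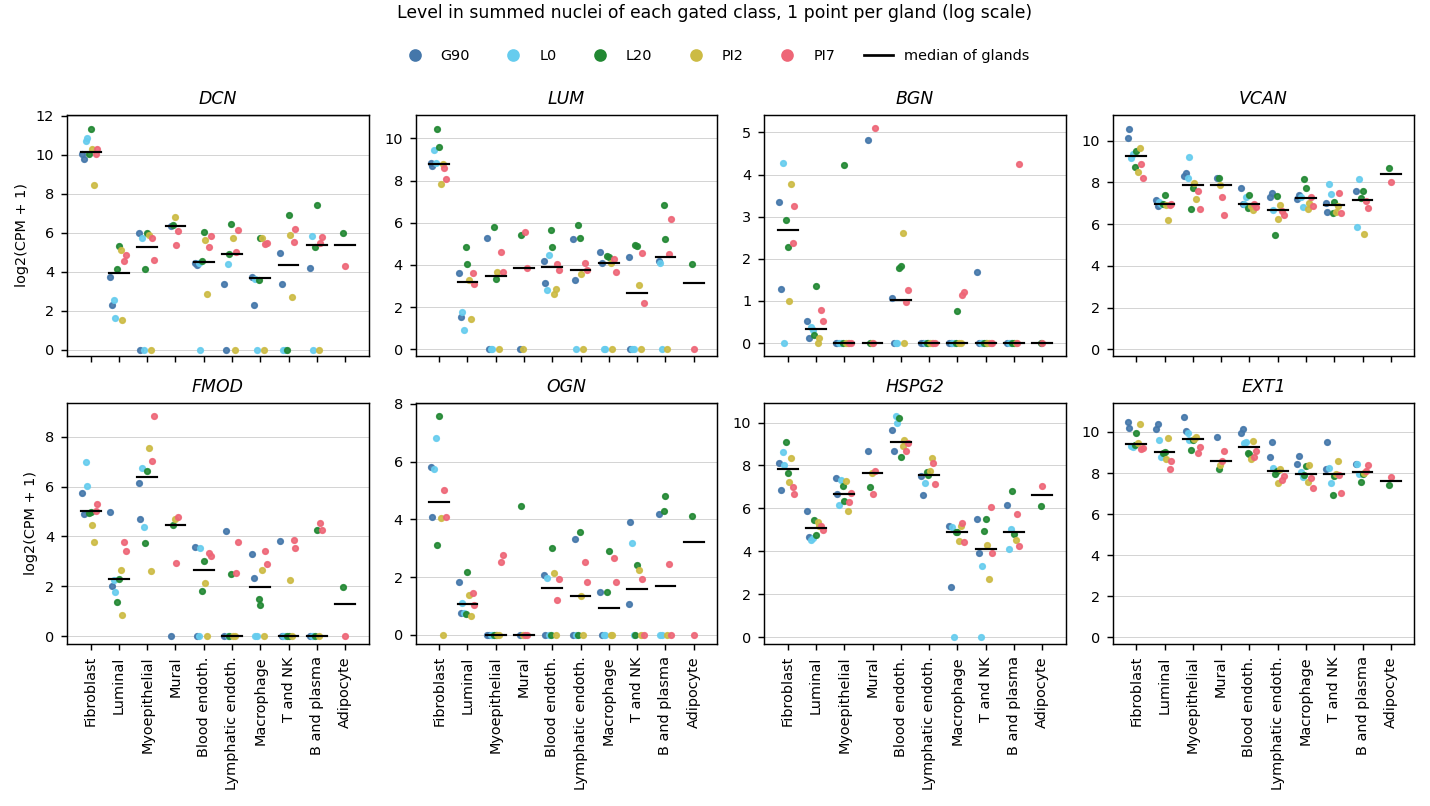
Levels of the 8 genes in summed nuclei of each gated class, as log2(CPM + 1), with 1 point per gland with at least 20 such nuclei, coloured by stage, and a line at the median of glands. DCN and LUM points of fibroblast nuclei lie above those of all other classes, HSPG2 is highest in blood endothelial nuclei, FMOD reaches its highest point of 448 CPM in myoepithelial nuclei, and EXT1 is spread over all classes.

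The test of this restriction compared fibroblast sums with those of each other class in the same glands (edgeR quasi-likelihood test with the gland as a block, Benjamini-Hochberg adjustment over all genes). A gene was called at an adjusted p under 0.05 and a log2 fold change over 1 in size. Of 72 comparisons of a member with a class, 53 passed the filter on low counts and 44 were called. A gene that passed only through its fibroblast level had to differ, so these counts describe and are no evidence on their own. Against luminal nuclei 6 of 7 tested members were called higher in fibroblasts, where 15.0% of the 15478 tested genes were. DCN was 6.54 ± 0.40 log2 units (SE, adjusted p = 7.27e-10) and LUM 6.12 ± 0.41 (adjusted p = 1.95e-09) higher than in luminal nuclei. Both were called higher in fibroblasts against all 9 classes, with log2 fold changes from 4.30 to 6.54 for DCN and from 4.16 to 6.12 for LUM, the lowest being those against mural cells.

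**Figure D2:**
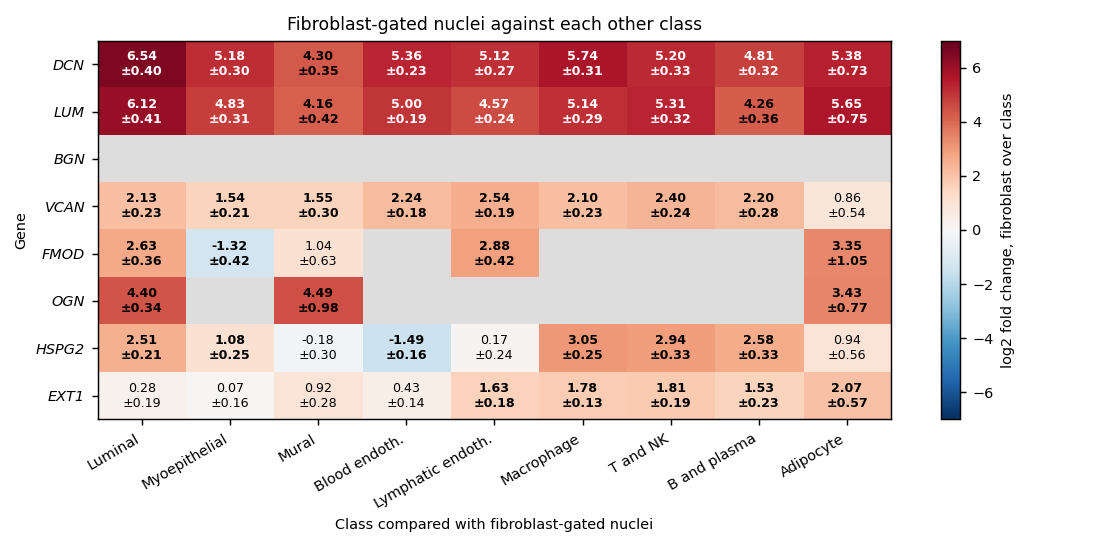
Log2 fold change ± SE of each gene in fibroblast-gated nuclei over each other class, with the gland as a block; bold marks called comparisons, and grey cells did not pass the filter on low counts. DCN and LUM are above 4 in every column, while FMOD against myoepithelial nuclei (-1.32) and HSPG2 against blood endothelial nuclei (-1.49) are below 0.

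Against the other classes, members called higher in fibroblasts are given with the share of all tested genes called higher. They were 4 of 6 against myoepithelial nuclei (9.25%), 4 of 7 against mural nuclei (6.89%, 5 glands), 3 of 5 against blood endothelial nuclei (9.34%) and 5 of 6 against lymphatic endothelial nuclei (9.63%, 9 glands). All 5 tested members were called higher against macrophages (13.9%), against T and NK cells (16.9%) and against B and plasma cells (14.8%, 8 glands), and 5 of 7 against adipocytes (3.33%), where 2 glands held at least 20 adipocyte nuclei. These were L20 replicate 2 with 296 and PI7 replicate 1 with 24, and no test can be made without either of them. In PI7 replicate 1 alone, adipocyte nuclei had 18.5 CPM of DCN and 222 CPM of EXT1, against 1031 and 583 CPM in fibroblast nuclei, and 0 UMIs of LUM, OGN and FMOD in 53960 UMIs. Called lower in fibroblasts were FMOD against myoepithelial nuclei, as were 5.69% of genes, and HSPG2 against blood endothelial nuclei, as were 8.17%.

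Fibroblast-gated nuclei supplied a median of 67.1% of the DCN UMIs of a gland (61.9% to 91.2%) and 62.1% of its LUM UMIs (47.5% to 89.5%), while they held a median of 5.21% of all UMIs. Of these nuclei, 60.6% had a DCN UMI and 37.7% a LUM UMI, against 4.01% and 1.34% of the T and NK nuclei, a class taken to lack both. The median depth per gland ran from 949.5 to 2232 UMIs in fibroblast nuclei and from 764 to 1474 in T and NK nuclei. With each nucleus thinned to 500 UMIs, which left out none, DCN was seen in 38.1% of fibroblast and 2.14% of T and NK nuclei, and LUM in 18.1% and 0.921%. Without L20 replicate 2 the thinned shares were 30.5% and 1.73% for DCN and 16.0% and 0.814% for LUM.

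Within the fibroblast gate, thinned nuclei with a DCN UMI held a LUM UMI more often (27.8% of 4103) than those without one (12.1% of 6673). Without L20 replicate 2 the LUM shares were 24.4% and 12.3%. The shares for EXT1 were 30.5% and 25.9%, and 26.9% and 25.4% without that gland. For VCAN they were 23.6% and 18.2%, and 18.4% and 16.8% without it, so much of the gap of both genes rested on L20 replicate 2. In all, 68.8% of thinned fibroblast nuclei had a UMI of any of the 8 genes and 34.1% of 2 or more, and without L20 replicate 2 these were 64.5% and 27.6%. Nuclei of 1 gland share their library, so no test was made.

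The ratio of the pair differed from gland to gland. LUM made up 30.3% and 31.9% of the LUM and DCN UMIs of fibroblast nuclei for G90, 29.4% and 19.7% for L0, 57.5% and 22.9% for L20, 15.1% and 55.2% for PI2 and 27.4% and 17.8% for PI7. LUM outnumbered DCN in 1 gland of L20 and 1 of PI2 only, and the exact 95% binomial intervals of these glands (55.4% to 59.5%, and 48.8% to 61.5%) did not meet those of their stage partners. The PI7 intervals (26.1% to 28.6%, and 16.1% to 19.5%) did not meet either. The intervals cover counting error only.

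**Figure D3:**
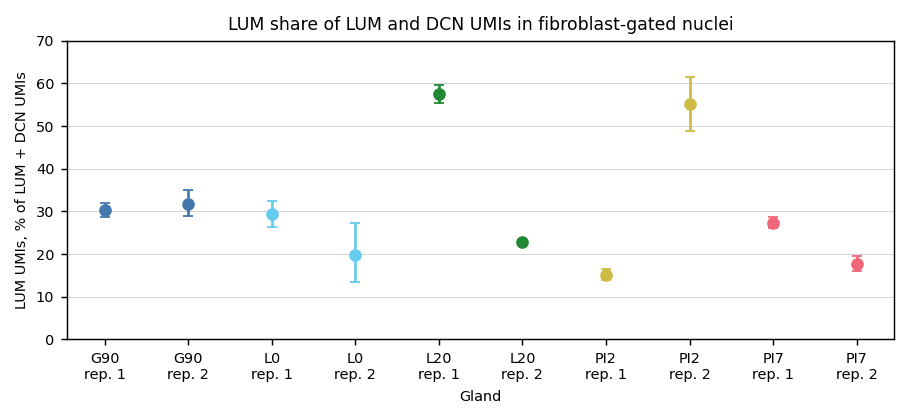
Share of LUM in the sum of LUM and DCN UMIs of fibroblast-gated nuclei, in percent, 1 point per gland with its exact 95% binomial interval. L20 replicate 1 (57.5%) and PI2 replicate 2 (55.2%) lie above the other 8 glands, which run from 15.1% to 31.9%.

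OGN and BGN had few UMIs in nuclei. OGN, a proteoglycan of connective tissue and bone, averaged 49.5 ± 58.9 CPM (SD, n = 10) in fibroblast nuclei and 1.42 ± 0.97 in luminal nuclei. By gland it stood at 55.5 and 15.9 CPM for G90, 52.7 and 112 for L0, 7.74 and 189 for L20, 15.7 and 0 for PI2 and 31.1 and 15.7 for PI7. L20 replicate 2 gave 2217 of the 2541 OGN UMIs of these nuclei, and in PI2 replicate 2, with 0 UMIs, the other gland of the stage had 32 UMIs.

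OGN passed the filter against 3 classes and was called higher in fibroblasts in each, by 4.40 ± 0.34 log2 units over luminal, 4.49 ± 0.98 over mural and 3.43 ± 0.77 over adipocyte nuclei. Mural nuclei held 1 OGN UMI and adipocyte nuclei 17, all from L20 replicate 2, so the mural and adipocyte values rest on the fibroblast counts. The adipocyte value is from 2 glands, and none of the 3 values is given without L20 replicate 2. In nuclei with a DCN UMI, OGN was seen in 5.97% of thinned nuclei, against 1.60% of those without, and these shares were 1.39% and 0.654% without L20 replicate 2.

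BGN, an X-linked relative of DCN that also binds collagen and growth factors, was near the limit of detection in nuclei, with 281 UMIs in all kept nuclei and 111 in fibroblast nuclei. Its fibroblast level was 9.25 and 1.45 CPM for G90, 18.5 and 0 for L0, 6.63 and 3.83 for L20, 0.981 and 12.7 for PI2 and 4.203 and 8.59 for PI7, each from 0 to 45 UMIs. BGN was higher in fibroblast than in luminal nuclei in 9 of 10 glands, but it did not pass the filter in any of the 9 class comparisons. Mural nuclei had a higher mean, 12.1 ± 16.7 CPM (SD, n = 5) against 6.61 ± 5.81 in fibroblast nuclei (n = 10). The mural mean rests on 1 UMI in G90 replicate 1 and 5 UMIs in PI7 replicate 2. In 1997 lymphatic endothelial nuclei it had 0 UMIs, which allows a share of nuclei with a UMI of up to 0.185%.

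FMOD, which binds collagen fibrils as LUM does, had its highest values in another class. It averaged 43.6 ± 32.6 CPM (SD, n = 10) in fibroblast nuclei and 110 ± 132 in myoepithelial nuclei, the contractile cells around alveoli and ducts. Myoepithelial levels were 69.0 and 24.9 CPM for G90, 105 and 19.7 for L0, 12.4 and 98.0 for L20, 185 and 5.18 for PI2 and 129 and 448 for PI7. Fibroblast levels were 52.6 and 28.9 for G90, 127 and 63.9 for L0, 29.8 and 30.3 for L20, 21.1 and 12.7 for PI2 and 31.7 and 38.7 for PI7. Myoepithelial nuclei were the higher of the pair in 5 of 10 glands, including both PI7 glands, so the classes overlapped.

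FMOD was called lower in fibroblast than in myoepithelial nuclei (log2 fold change -1.32 ± 0.42, adjusted p = 0.0223), on 207 myoepithelial UMIs. The call was lost without PI2 replicate 1 (-1.008, adjusted p = 0.0998), without PI7 replicate 1 (-1.21, adjusted p = 0.0759) and without the gland block (-1.37, adjusted p = 0.0713), and with DESeq2 (-0.83, adjusted p = 0.273). FMOD was called higher in fibroblast than in luminal (2.63 ± 0.36), lymphatic endothelial (2.88 ± 0.42) and adipocyte nuclei (3.35 ± 1.05). Lymphatic endothelial nuclei held 13 FMOD UMIs and adipocyte nuclei 5, the latter compared in 2 glands. Among thinned nuclei, 5.18% of myoepithelial and 1.48% of fibroblast nuclei had an FMOD UMI, against 0.327% of T and NK nuclei.

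VCAN, the large chondroitin sulfate proteoglycan that binds hyaluronan, was also highest in fibroblast nuclei, but over a high level elsewhere. It averaged 694 ± 377 CPM (SD, n = 10) in fibroblast, 255 ± 145 in myoepithelial and 124 ± 23.8 in luminal nuclei, and from 113 to 338 CPM in the means of the other classes. VCAN was higher in fibroblasts in all compared glands against the 9 classes, which were 2 for adipocytes, 5 for mural, 8 for B and plasma, 9 for lymphatic endothelial and 10 for the other classes. It was called against 8 of them, by 1.54 ± 0.21 log2 units over myoepithelial to 2.54 ± 0.19 over lymphatic endothelial nuclei. Against adipocytes the value was 0.86 ± 0.54 (adjusted p = 0.599, 2 glands). VCAN was seen in 5.32% of thinned T and NK nuclei and in 20.3% of thinned fibroblast nuclei (17.3% without L20 replicate 2). Luminal nuclei, the most abundant class, held a median of 52.4% of the VCAN UMIs of a gland and 63.1% of all its UMIs, and fibroblast nuclei 14.8% and 5.21%. Of thinned luminal nuclei 5.31% had a VCAN UMI, near the share of T and NK nuclei.

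In fibroblast nuclei VCAN stood at 1110.5 and 1521 CPM for G90, 577 and 655 for L0, 425 and 725 for L20, 356 and 797 for PI2 and 476 and 296 for PI7. Both G90 glands lay above the other 8, as did 2.72% of genes with at least 50 UMIs. The log2 fold change of L0 over G90 was -1.20 ± 0.56 and did not pass the test (adjusted p = 0.855).

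HSPG2, the core protein of perlecan, was highest in blood endothelial nuclei in all 10 glands among classes with at least 20 nuclei. It averaged 696 ± 336 CPM (SD, n = 10) there, 248 ± 144 in fibroblast, 209 ± 121 in mural (n = 5), 197 ± 70.1 in lymphatic endothelial (n = 9), 111 ± 41.0 in myoepithelial and 33.94 ± 11.096 in luminal nuclei. Blood endothelial levels were 813 and 413 CPM for G90, 1245 and 993 for L0, 1172 and 332 for L20, 481 and 577 for PI2 and 405 and 526 for PI7. Fibroblast levels were 273 and 114 for G90, 390.1 and 255 for L0, 553 and 199 for L20, 148 and 324 for PI2 and 126 and 101 for PI7.

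The test called HSPG2 lower in fibroblast than in blood endothelial nuclei (-1.49 ± 0.16, adjusted p = 7.36e-07). Mural (-0.18 ± 0.30) and lymphatic endothelial nuclei (0.17 ± 0.24) did not differ from fibroblasts by the test, the former in 5 glands. HSPG2 was called higher in fibroblast than in luminal nuclei (2.51 ± 0.21), macrophages (3.05 ± 0.25), T and NK cells (2.94 ± 0.33) and B and plasma cells (2.58 ± 0.33). Against myoepithelial nuclei the value was 1.0804 ± 0.25 (adjusted p = 0.00228), and it lay under the fold threshold without L0 replicate 1 (0.98), L20 replicate 1 (0.94) or PI2 replicate 2 (0.92). Thinned nuclei with an HSPG2 UMI made up 17.7% of blood endothelial, 8.44% of fibroblast and 2.02% of T and NK nuclei.

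EXT1 was not highest in a single class. Mean levels were 874 ± 347 CPM in myoepithelial, 871 ± 333 in fibroblast, 666 ± 355 in luminal and 666 ± 237 in blood endothelial nuclei (SD, n = 10), which overlap. Mural nuclei averaged 483 ± 233 (n = 5) and lymphatic endothelial nuclei 322 ± 166 (n = 9), and macrophages, T and NK, and B and plasma nuclei averaged 273, 284 and 281 CPM. Fibroblast nuclei were higher than luminal nuclei in 8 of 10 glands and higher than myoepithelial nuclei in 5 of 10.

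By the test, EXT1 in fibroblasts differed from luminal nuclei by 0.28 ± 0.19 log2 units (adjusted p = 0.226) and from myoepithelial nuclei by 0.07 ± 0.16 (adjusted p = 0.821), and neither passed. From blood endothelial nuclei it differed by 0.43 ± 0.14 (adjusted p = 0.0237), under the fold threshold. EXT1 was called higher in fibroblasts against lymphatic endothelial nuclei (1.63 ± 0.18), macrophages (1.78 ± 0.13), T and NK cells (1.81 ± 0.19), B and plasma cells (1.53 ± 0.23) and adipocytes (2.07 ± 0.57). The adipocyte value is from 2 glands, mainly L20 replicate 2. Pooled over all glands, also those with fewer than 20 adipocyte nuclei, EXT1 was at 218 CPM in adipocyte and 901 CPM in fibroblast nuclei. Without L20 replicate 2 these were 511 and 824 CPM. Luminal nuclei held a median of 66.7% of the EXT1 UMIs of a gland, near their 63.1% of all UMIs. EXT1 was seen in 27.6% of thinned fibroblast, 25.4% of myoepithelial and 10.96% of T and NK nuclei.

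Between stages, no test of EXT1 passed, and its levels in each class are given as values. In luminal nuclei EXT1 stood at 1144 and 1357 CPM for G90, 776 and 446 for L0, 502 and 527 for L20, 405 and 837 for PI2 and 288 and 379 for PI7. Both G90 glands were above the other 8 (5.2% of 20035 genes) and both PI7 glands below them (0.449%). In fibroblast nuclei the values were 1443 and 1169.9 for G90, 643 and 607 for L0, 668 and 974.5 for L20, 695 and 1334 for PI2 and 583 and 594 for PI7, where PI7 lay below the other 8 glands (0.182% of genes) and G90 overlapped with PI2 replicate 2.

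In blood endothelial nuclei EXT1 stood at 985 and 1115 CPM for G90, 695 and 721 for L0, 501 and 490.4 for L20, 405 and 760.3 for PI2 and 445 and 539.7 for PI7, and G90 lay above the other glands (2.32% of genes). In whole glands the values were 1086 and 1336 for G90, 753 and 445 for L0, 472 and 565 for L20, 423 and 807 for PI2 and 346 and 397 for PI7, with G90 above (3.64%) and PI7 below (0.112%) the other glands. PI2 replicate 2 was the highest of the 8 later glands in all 4 of these series. A test of any difference over the 5 stages gave an adjusted p of 0.274 in luminal nuclei and near 1 in blood endothelial nuclei, and neither passed. This test called 0.135% of genes in luminal and 0.0198% in blood endothelial nuclei, with none of the 8 genes among them. In mural nuclei only 5 glands of 4 stages could enter, none of them at L0 and 2 only at PI7, so that 1 residual degree of freedom was left and the lone glands were assumed to vary like the PI7 pair. It called 1.19% of genes there and none of the 3 members tested.

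**Figure D4:**
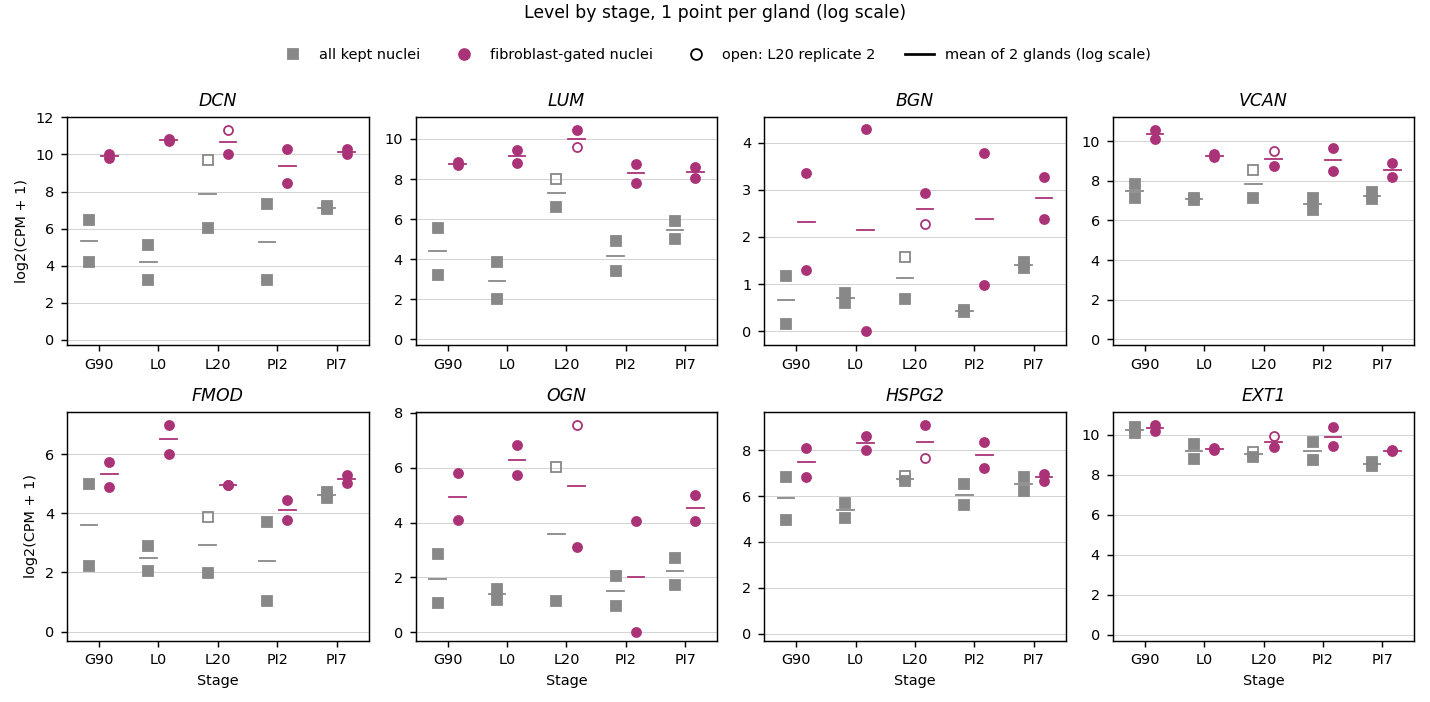
Level of each gene at each stage as log2(CPM + 1), with squares for all kept nuclei of a gland, circles for its fibroblast-gated nuclei, open symbols for L20 replicate 2 and lines at the mean of 2 glands on the log scale. EXT1 is highest at G90 in whole glands, LUM of fibroblast nuclei is highest at L20, and OGN of whole glands reaches 63.7 CPM in L20 replicate 2 and at most 6.25 CPM in the other glands.

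In whole glands the level of a stroma gene also depends on how many fibroblast nuclei were caught, and fewer cells of a type and less RNA per cell cannot be told apart in these sums. DCN was at 86.5 and 17.7 CPM for G90, 34.2 and 8.47 for L0, 64.9 and 844 for L20, 158 and 8.502 for PI2 and 147 and 133 for PI7, a range of 99.7 times, against 7.31 times in fibroblast nuclei. L20 replicate 2 was the highest gland in both. Without it DCN ran from 8.47 to 158 CPM in whole glands and from 353 to 1820 CPM in fibroblast nuclei. LUM was at 46.0 and 8.33 CPM for G90, 13.8 and 2.97 for L0, 96.1 and 255 for L20, 29.5 and 9.68 for PI2 and 58.6 and 30.8 for PI7. Both L20 glands were above the other 8 for LUM (1.17% of 23258 genes). Luminal nuclei had LUM at 27.9 and 15.7 CPM at L20 and 0.866 to 11.3 CPM elsewhere (1.36% of genes). Blood endothelial nuclei had LUM at 28.2 and 49.1 CPM at L20 and 5.12 to 20.9 CPM elsewhere, on 147 UMIs in all. The share of all genes with such an order of glands is not given for blood endothelial nuclei, so these values only describe. Whether the LUM UMIs of these 2 classes were free RNA was not tested.

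No gene was called between stages in whole glands (0% of 22695 genes tested) or in fibroblast nuclei (0% of 13002), in any of 5 contrasts by edgeR, which covered successive stages and the 4 lactation glands against the other 6. For L20 against L0 in whole glands the log2 fold change was 3.76 ± 0.90 for LUM (adjusted p = 0.177), 3.64 ± 1.31 for DCN (adjusted p = 0.287) and 3.50 ± 1.29 for OGN (adjusted p = 0.295). DESeq2 called these 3 genes in that contrast, as it did 6.24% of 18050 genes. Without L20 replicate 2, edgeR gave 3.32 for LUM, 1.40 for DCN and -0.64 for OGN. Members with an unadjusted p under 0.05 numbered 3 for L20 against L0 (12.8% of all genes) and 2 for PI2 against L20 (LUM and OGN, 3.6% of all genes). They numbered 0 for L0 against G90, PI7 against PI2 and lactation, where 7.28%, 2.04% and 5.49% of all genes had such a p.

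In fibroblast nuclei, 5 of the 8 genes had an unadjusted p under 0.05 for lactation against the other stages, as did 5.08% of all 13002 genes, and none passed after adjustment. The fitted values of these 5 genes were above 0, but for each of them the lactation glands overlapped with the other glands. FMOD at L20 (29.8 and 30.3 CPM) lay below both PI7 glands, and OGN stood at 7.74 CPM in L20 replicate 1. The log2 fold changes were 1.16 ± 0.34 for LUM (adjusted p = 0.729), 0.92 ± 0.40 for DCN, 1.05 ± 0.38 for HSPG2, 0.95 ± 0.37 for FMOD and 2.10 ± 0.71 for OGN. Leaving out L20 replicate 2 gave 1.37 for LUM, 0.51 for DCN, 1.36 for HSPG2, 0.96 for FMOD and 0.23 for OGN. Across the 8 genes the median was 0.94, with EXT1 (-0.34) and VCAN (-0.15) below 0, against -0.08 over all genes tested. The medians describe genes that differ in count depth and were not tested.

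In the other stage contrasts of fibroblast nuclei DESeq2 called none. Members with an unadjusted p under 0.05 numbered 2 for L0 against G90 (5.47% of all genes), 1 for L20 against L0 (6.11%), 2 for PI2 against L20 (4.0%) and 0 for PI7 against PI2 (2.15%). FMOD was 1.299 ± 0.58 higher at L0 than at G90 (adjusted p = 0.855), and its L0 glands lay above the other 8 (3.63% of genes). Its value for L20 against L0 was -1.72 ± 0.58 (adjusted p = 0.754), and its PI2 glands lay below the others (1.09%). FMOD at L0 rests on 48 and 4 UMIs and at PI2 on 43 and 4 UMIs. EXT1 at L0 against G90 gave -1.13 ± 0.52 (adjusted p = 0.855). For PI2 against L20, LUM gave -1.74 ± 0.55 and OGN -3.35 ± 1.17, with adjusted p near 1, and OGN turned to 0.36 without L20 replicate 2.

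Likeness between genes was described with the Pearson correlation of log2(CPM + 1) over 47 sums of a class within a stage, which share libraries and depth, so no p is given. L20 replicate 2 gave most nuclei of the L20 fibroblast sum, and the correlations are not given without it. Among the 8 genes the highest values were 0.76 for LUM with OGN and 0.76 for DCN with LUM, and the lowest was 0.041 for OGN with EXT1. Over 19570 genes, the pattern of DCN was most like those of the gate markers COL3A1 (0.85) and COL6A3 (0.83) and of SLIT2 (0.84). LUM was most like MFAP5 (0.86), a microfibril protein, LOX (0.82), the enzyme that crosslinks collagen, and PI16 (0.81). OGN was most like MFAP5 (0.78), LUM (0.76) and ZNF385D (0.76). VCAN was most like BICC1 (0.76), ADAMTS5 (0.74), a protease that cuts versican and aggrecan, and SLIT2 (0.73).

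HSPG2 stood with CAV1 (0.89), the caveolae protein, FBXL7 (0.89) and the basement membrane collagen COL4A1 (0.89). FMOD stood with POSTN (0.78), a secreted matrix protein, ISM1 (0.78) and BOC (0.77). EXT1 stood with PDZRN3 (0.79), the co-receptor TGFBR3 (0.72), itself a proteoglycan, and ACVR2A (0.67), and BGN with PTGIR (0.72), PCSK1N (0.71) and PCDH18 (0.68). BGN values rest on few UMIs.

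Other genes of the pathway came from 7 lists of 95 genes, 90 of them in the matrices. Their counts against luminal nuclei stand beside 15.0% of all genes called higher in fibroblasts and 1718 of 15478 called lower. Class comparisons of these lists are given against luminal nuclei only, and counts against other classes can differ. All 7 tested small leucine-rich proteoglycans beside the members were called higher in fibroblast than in luminal nuclei, with a median log2 fold change of 4.02 against -0.13 over all genes tested. Among them were KERA (6.52 ± 0.41), which follows LUM on the chromosome, and OMD (4.02 ± 0.32), ASPN (5.03 ± 0.33) and ECM2 (5.52 ± 0.35), which lie beside OGN. ECM2 (241 CPM) and ASPN (132 CPM) had the highest levels of the list in fibroblast nuclei. In lactation against other stages, 6 of 7 of this list had an unadjusted p under 0.05 in fibroblast nuclei, beside 5.08% of all genes, and none passed, with ASPN at 1.88 ± 0.32 (adjusted p = 0.36) and PODNL1 in the opposite direction at -2.38 ± 0.88 (adjusted p = 0.874).

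Enzymes that build the chains of DCN, BGN and VCAN also differed. Of 14 tested genes of chondroitin and dermatan sulfate synthesis, 9 were called higher in fibroblast than in luminal nuclei and 0 lower, among them CHST3 (3.32 ± 0.23), CHST11 (2.78 ± 0.31) and CHST7 (2.66 ± 0.34), which sulfate the chain, and DSE (3.09 ± 0.23), the epimerase that turns chondroitin into dermatan sulfate. UST (404 CPM) and CHSY3 (318 CPM) had the highest levels of this list in fibroblasts. Of 21 tested genes of the linker region and of heparan sulfate synthesis, 2 were called higher and 4 lower, where 2329 and 1718 of all 15478 genes were. XYLT1, which adds the first sugar to the core protein, was higher (2.62 ± 0.21), while NDST1 (-1.22 ± 0.18), GLCE (-1.11 ± 0.17) and HS3ST1 (-1.58 ± 0.28), which modify heparan sulfate, were lower.

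Of 9 tested genes that cleave proteoglycans or edit heparan sulfate, 6 were called higher in fibroblasts and 0 lower, with the proteases ADAMTS5 (5.42 ± 0.23), ADAMTS15 (3.87 ± 0.23) and ADAMTS1 (2.74 ± 0.34) and the sulfatase SULF1 (4.74 ± 0.22). Of 12 cell surface proteoglycans, 3 were called higher, GPC3 (3.52 ± 0.24), GPC6 (2.65 ± 0.38) and CSPG4 (2.58 ± 0.34), and 0 lower, a count near the 15.0% of all genes called higher. TGFBR3 (947 CPM) and SDC2 (197 CPM) had the highest levels. Of 9 other matrix proteoglycans and link proteins, 3 were higher, COL18A1 (1.81 ± 0.22), SPOCK1 (2.11 ± 0.55) and SRGN (1.34 ± 0.31), and 2 lower, among them HAPLN3 (-1.70 ± 0.25). Of 5 genes of hyaluronan synthesis and turnover, CEMIP2 (1.09 ± 0.17) and CEMIP (1.12 ± 0.29) were higher and 0 lower.

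The sections gave another order of levels than the nuclei. The G90 section had 4721 spots with 42815421 UMIs and the PI2 section 2248 spots with 17906403 UMIs, and a spot is a small region that can hold several cells. With 1 section per stage there is no test, and the intervals given are exact Poisson intervals that cover counting error only. BGN stood at 165 CPM (95% interval 161 to 169) at G90 and 374 CPM (365 to 383) at PI2, which is 297 and 1084 times its level in the pooled nuclei of the same stage. EXT1 stood at 43.7 and 14.7 CPM, where pooled nuclei had 28.4 and 39.9 times more, and VCAN at 39.4 and 11.7 CPM, with 4.39 and 10.2 times more in nuclei. The other members were higher in sections, by 10.3 and 4.47 times for DCN, 15.7 and 11.9 times for LUM, 8.66 and 17.8 times for FMOD, 5.82 and 3.34 times for OGN and 6.75 and 4.08 times for HSPG2. Pooled nuclei join 2 glands that could differ widely, so the size of these folds depends on the gland. At PI2 the 2 glands had DCN at 158 and 8.502 CPM and FMOD at 12.1 and 1.07 CPM. At G90 they had BGN at 1.27 and 0.113 CPM. The direction was the same against either gland for each gene. EXT1 and VCAN, the pair with higher values in nuclei, span 290768 and 129498 bases, and HSPG2, which was higher in sections, spans 108593 bases. Whether gene length had a part was not tested. Assay, animal and the RNA compartment sampled cannot be told apart here.

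Between the sections, BGN was 2.27 times higher at PI2, and EXT1 (0.338 times), VCAN (0.296 times) and OGN (0.413 times) were below the G90 level, where 28.6% of genes with at least 50 UMIs differed by over 2 times in either direction. DCN stood at 452 CPM at G90 and 419 at PI2, LUM at 358 and 250.1, FMOD at 121 and 131, and HSPG2 at 419 and 295. Thinning each spot to 1000 UMIs kept 4634 of 4721 spots at G90 and 2059 of 2248 at PI2. In these thinned spots DCN stood at 536 and 589 CPM and LUM at 416 and 415, so neither kept its difference. BGN stayed higher at PI2 (180 and 454 CPM). Thinned EXT1 stood at 43.4 and 22.3 CPM, just under 2 times apart. Its thinned PI2 value rests on fewer UMIs than the 264 of the full counts. Thinned FMOD stood at 126 and 118 CPM, the opposite order to that of the full counts.

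Spots rich in fibroblast markers held more DCN, LUM, BGN and OGN in both sections, but not more FMOD at PI2. They held fewer UMIs each than the other spots in both sections, and the folds given here are not matched for depth. Folds from thinned spots and from the richest 20% of spots are not given. How far the sizes of these folds, such as those of OGN, depend on depth or on the share of spots taken is therefore not shown. A spot can be among the richest for several marker lists. In the tenth of G90 spots with the highest share of fibroblast marker UMIs (472 spots), DCN was at 1275 CPM against 426 in the other spots, 2.997 times higher, LUM was 2.55 times, BGN 2.05 times and OGN 6.35 times higher. In the PI2 section (225 spots) the folds were 5.20 for DCN, 5.80 for LUM, 2.44 for BGN, 12.8 for OGN, 3.72 for VCAN and 2.88 for EXT1, the last pair from 22 UMIs each. Over 2 times higher were 4 of 8 members at G90, where 5.37% of genes were, and 6 of 8 at PI2, where 9.41% were. VCAN (1.03) and EXT1 (1.02) were even at G90.

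FMOD had folds from 0.93 to 1.13 at G90 over 6 marker lists and from 0.64 to 1.07 at PI2. Its lowest values at PI2 were in spots rich in luminal markers, at 86.5 CPM (95% interval 73.8 to 100.9) against 136 (130.1 to 142) elsewhere, and in spots rich in myoepithelial markers, at 93.5 (80.1 to 108) against 135 (129 to 141). In nuclei the myoepithelial class had the highest FMOD values. Spots rich in blood endothelial markers held BGN at 2.44 and 2.25 times, and HSPG2 at 1.41 and 1.64 times, the level of other spots at G90 and PI2. Shares of genes over 2 times higher in such spots were 5.63% and 6.62%. Spots rich in adipocyte markers held OGN at 5.02 and 2.86 times the level of other spots (4.84% and 3.95% of genes over 2 times), DCN at 1.89 and 2.14 times and LUM at 1.65 and 2.58 times. Spots rich in luminal markers had folds from 0.61 (VCAN at PI2) to 1.009 (OGN at PI2) for all 8 genes in both sections.

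**Figure D5:**
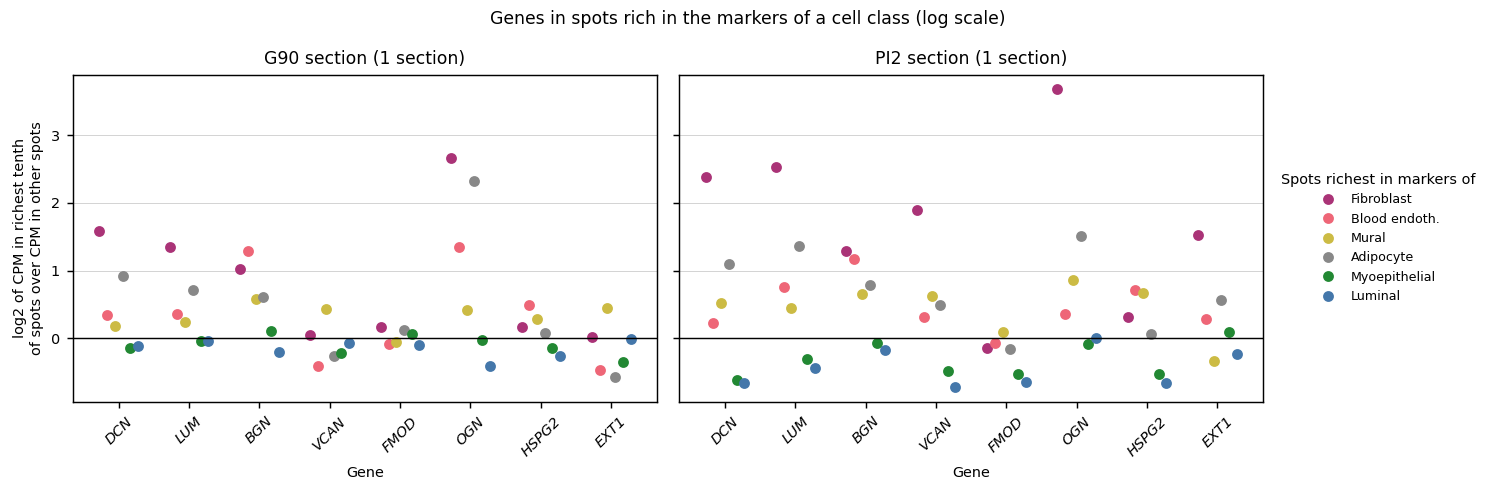
Log2 of the CPM in the tenth of spots richest in the markers of a class over the CPM in all other spots, for each gene and 6 marker lists, in the G90 and the PI2 section. DCN, LUM and OGN are highest in spots rich in fibroblast markers in both sections, BGN at G90 is highest in spots rich in blood endothelial markers, and FMOD stays near 0 at G90.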

How the data were processed

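For the 10 gland libraries, the authors deposited whole UMI counts per gene and nucleus (GEXSCOPE, CeleScope v1.1.7, Sscrofa11.1), and for the 2 sections UMI counts per gene and spot from Space Ranger, whose version differs between the sources used here. Counts were not normalized. No source used here names the annotation release. The 2 milk libraries were not used here. No doublets or free RNA were removed.

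UMIs were summed per gland and class (at least 20 nuclei) and tested with edgeR 4.0.16 (R 4.3.3, TMM, filterByExpr, quasi-likelihood test, all genes, 5 stages in 1 fit). Class comparisons had the gland as a block, since both sums come from 1 sow. Replicates of a stage differed beyond counting noise. The 2 section values have no test. The method was tested on simulated data. Alternatives were DESeq2 1.42.0, RLE size factors, no filter on low counts, the replicate number as a block, only the 2 stages compared, at least 500 genes with at most 5% mitochondrial UMIs, a gate of 3 markers, a fibroblast list without collagens, thinning, the richest 20% of spots and each gland left out. All 8 members are named, with the 2 genes of highest fibroblast level and up to 4 called genes of smallest p per list, and the 3 genes most alike each member. List genes named beside these are said to lie next to a member or to have moved the opposite way and were chosen after their values were seen. Members and lists were chosen with earlier results of these data known. The upstream sequence of 1 of the 8 genes is not reported here.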

Additional observations from a re-analysis of the deposited data

Results flagged for a closer look

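Among the 4 lactation glands, L20 replicate 2 stood apart from the other 3 in 5 of 16 such groups examined (8 genes, whole gland and fibroblast nuclei), by a gap test that chance passes in about 1 in 20 groups. None of the 16 groups of the 6 glands outside lactation passed it. In whole glands it was the highest for DCN (844 CPM, nearest gland 64.9), OGN (63.7 CPM, nearest 2.00), VCAN (367 CPM, nearest 139.9) and BGN (1.98 CPM, nearest 0.749). In fibroblast-gated nuclei it was the highest for EXT1 (974.5 CPM, nearest 668). This gland held 4401 fibroblast-gated nuclei, 29.1% of its kept nuclei, and its levels of DCN and OGN in fibroblast nuclei, 2577 and 189 CPM, were also the highest of the 10 glands. Its share of luminal nuclei was the lowest of the glands (7.42%), and its shares of macrophages (13.5%) and adipocytes (1.95%) were the highest. The part that the numbers of nuclei had in these values was not tested.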

How the results depend on the processing

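Of 604 results of called class comparisons under alternatives, 590 kept their call and direction and 14 lost the call; 203 of 208 counts of members called between stages stayed at 0. The counts that moved were, for L20 against L0 in whole glands, 3 with DESeq2 (DCN, LUM and OGN, and 6.24% of all genes) and 1 with no filter on low counts (LUM, and 0.937% of all genes). In fibroblast nuclei, no filter also gave 1 (OGN) for PI2 against L20 (0.15% of all genes) and 1 (OGN) for lactation (0.359%), and DESeq2 gave 1 (LUM) over the stages in luminal nuclei, where it called 2052 of 18709 genes. Against myoepithelial nuclei, 5 calls became 3 with a gate of 3 markers (18.6% of all genes), 3 without collagens in the fibroblast list (18.0%) and 3 without L0 replicate 1 (14.9%), with a range of 3 to 5 over all glands left out. DESeq2 and no filter each gave 7 calls against blood endothelial nuclei, in place of 4, and 8 against macrophages and against T and NK nuclei, in place of 5, since more members were tested. In these 3 comparisons DESeq2 called 15.4%, 21.7% and 21.2% of all genes, and no filter 9.55%, 13.9% and 14.2%.

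Directions were followed for all class comparisons of members, but between stages only for chosen values, mostly those with an unadjusted p under 0.05. Among these, OGN turned without L20 replicate 2. For L20 against L0 in whole glands it went to -0.64 (-0.64 to 4.56 over all glands left out). For PI2 against L20 it went to 0.72 in whole glands (-4.49 to 0.72). In fibroblast nuclei it went to 0.36 in that contrast (-10.95 to 0.36, the lowest without PI2 replicate 1, which leaves 0 UMIs at PI2). EXT1 against myoepithelial nuclei turned to -0.17 with a gate of 3 markers and -0.0079 without collagens. HSPG2 against mural nuclei turned to 0.11 with no filter and 0.12 without PI7 replicate 2 (-0.38 to 0.12 over all glands left out). None of these values had passed the edgeR test with its filter, and the calls of OGN with DESeq2 (L20 against L0, whole gland) and with no filter (PI2 against L20, fibroblast nuclei) are in contrasts whose edgeR value turned without L20 replicate 2. Apart from the gland left out the cause was not tested. FMOD could not be fitted against myoepithelial nuclei with the stricter gate or without G90 replicate 1, L0 replicate 1 or PI7 replicate 2. Replicate numbers of different stages come from different sows. Their deviations from the stage mean had correlations of -0.50 to 0.37, over 0.1 in 2 of 10 pairs of stages. The largest in size were -0.50 (L20 with PI7), -0.47 (G90 with L20) and 0.37 (G90 with PI7). Deviations were thus related in some pairs, but without a common direction. With the replicate block 0 members were called in each stage contrast. With 2 sows per stage, a difference between stages must exceed the spread of these animals to pass, and BGN, OGN and FMOD are further limited by few UMIs.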
